A study of Mus musculus with 6 samples.

Results

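The mitochondrial ribosomal protein genes were read in single cells of the mouse small intestinal epithelium as every gene whose symbol starts with Mrpl or Mrps followed by a digit. This rule found 78 of the 32285 features, 49 with a large subunit symbol (Mrpl) and 29 with a small subunit symbol (Mrps). The mice were of the C57BL/6 background, and the study compared controls (HuR fl/fl without Cre, labelled wild-type) with IE-HuR-/- mice (HuR fl/fl with Cre under the villin promoter, labelled HuR knockout), with 3 libraries for each label. The methods state that food was withheld before the tissue was taken, whereas the labels give normal feeding. The villin promoter is active in intestinal epithelial cells, so the T cells that lie within the epithelium do not carry the deletion by design. HuR, encoded by Elavl1, is an RNA-binding protein that attaches to U- and AU-rich stretches, mostly in 3′ untranslated regions (3′ UTRs). The libraries held between 8613 and 15041 cell barcodes and between 59518012 and 91818560 unique molecular identifiers (UMIs, each standing for a captured RNA molecule), and pairs of libraries shared 22 to 44 barcodes.

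Mitochondria keep a small genome of their own, and the 13 proteins that it encodes, all of them subunits of the respiratory chain and the ATP synthase, are made inside the organelle by a dedicated ribosome. The ribosomal RNAs of this mitoribosome are transcribed in the mitochondrion, but all of its proteins come from nuclear genes, are made in the cytosol and are imported. Some of these proteins have a bacterial homologue, and others were added after the mitochondrion arose. Of the 78 genes, 48 encode a homologue of a bacterial ribosomal protein and 29 a mitochondria-specific one. The remaining gene, Mrps36, carries a ribosomal name, but its product is a component of the 2-oxoglutarate dehydrogenase complex of the citric acid cycle. Mrps18a and Mrps30 carry small subunit symbols although their products sit in the large subunit. All 78 are annotated as protein-coding in GENCODE M21 (GRCm38) and lie on 17 chromosomes. An exon of 28 of them overlaps an exon of another gene on the opposite strand, and an exon of 8 overlaps one on the same strand.

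Promoter sequences are shown for 5 of the genes named below, chosen by hand. RefSeq (GRCm38.p6) gave windows of 300 bases (250 before and 50 after the start site) for 69 of the 78 genes, 75 windows in all. Capitals mark exact matches, on either strand, to the core letters of 3 factors known from promoters of mitochondrial and ribosomal genes, namely NRF1 (CGCATGCG), an ETS factor (CCGGAAGT, or ACTTCCGG on the other strand) and YY1 (AAGATGGCG, or CGCCATCTT on the other strand). Mrps27 and Mrpl52 are shown for their levels in progenitor-like and T-like cells, Mrps18b for its change with the label, Mrps11 for its level in tuft-like cells, and Mrps36 as the member whose product is not a mitoribosome protein.
Mrps27, chr13:99344536-99344835 (plus strand): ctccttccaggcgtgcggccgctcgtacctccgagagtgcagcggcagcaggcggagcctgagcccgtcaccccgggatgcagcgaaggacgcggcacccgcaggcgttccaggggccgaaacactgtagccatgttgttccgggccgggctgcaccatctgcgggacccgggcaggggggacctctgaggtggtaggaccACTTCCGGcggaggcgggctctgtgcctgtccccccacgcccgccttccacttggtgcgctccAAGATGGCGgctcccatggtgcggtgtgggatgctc
Mrpl52, chr14:54426659-54426958 (plus strand): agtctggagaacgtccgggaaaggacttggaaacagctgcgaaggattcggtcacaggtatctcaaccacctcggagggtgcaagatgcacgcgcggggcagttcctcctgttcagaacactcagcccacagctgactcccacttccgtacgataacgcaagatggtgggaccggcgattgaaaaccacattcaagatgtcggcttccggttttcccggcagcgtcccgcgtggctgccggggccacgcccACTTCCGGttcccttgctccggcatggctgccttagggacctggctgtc
Mrps18b, chr17:35916391-35916690 (minus strand): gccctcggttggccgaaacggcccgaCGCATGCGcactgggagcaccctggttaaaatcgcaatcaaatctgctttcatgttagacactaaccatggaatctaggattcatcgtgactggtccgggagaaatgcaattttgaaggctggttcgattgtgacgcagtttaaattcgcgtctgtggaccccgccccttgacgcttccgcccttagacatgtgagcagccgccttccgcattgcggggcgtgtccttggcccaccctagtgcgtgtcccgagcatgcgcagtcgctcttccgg
Mrps11, chr7:78782881-78783180 (plus strand): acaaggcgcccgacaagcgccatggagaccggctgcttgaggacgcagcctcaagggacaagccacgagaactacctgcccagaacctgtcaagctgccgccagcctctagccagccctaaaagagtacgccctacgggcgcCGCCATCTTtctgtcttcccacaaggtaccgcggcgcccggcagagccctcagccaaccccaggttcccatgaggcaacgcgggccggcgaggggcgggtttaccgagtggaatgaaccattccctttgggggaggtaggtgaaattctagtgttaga
Mrps36, chr13:100744610-100744909 (minus strand): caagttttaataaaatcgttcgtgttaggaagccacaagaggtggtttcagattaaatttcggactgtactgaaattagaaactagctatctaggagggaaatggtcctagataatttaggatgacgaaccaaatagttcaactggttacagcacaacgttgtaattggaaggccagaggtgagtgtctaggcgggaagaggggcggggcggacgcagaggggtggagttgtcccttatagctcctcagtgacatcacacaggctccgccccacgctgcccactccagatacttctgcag
The Mrps27 window held an ETS and a YY1 core, the Mrpl52 window an ETS core, the Mrps18b window an NRF1 core and the Mrps11 window a YY1 core, whereas the Mrps36 window held none of the 3. Among the genes not shown, the windows of Mrpl46 and Mrpl12 held none of the 3 either. Mrpl13, Mrpl15 and Mrps35, which are named below for their change with the label, had no window. Over all 75 windows of the members, 7 held the NRF1 core (9.33%), 12 the ETS core and 8 the YY1 core (10.7%), and 26 (34.7%) held at least 1 of them. Among the 11950 windows of genes tested in enterocyte-like cells the shares were 3.799%, 8.28%, 3.09% and 14.3%, and among all 32851 windows they were 1.87%, 3.89%, 1.40% and 6.79%. These are counts of letters, which do not show that a factor binds. The Mrps11 window also holds the start site of Mrpl46, which lies 42 bases away on the opposite strand.

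Cells were assigned to 6 classes by the summed UMI share of marker genes, and a cell that met the criteria of more than 1 class was set aside. Cells that met those of another type, Paneth cells among them, were set aside too. This gave 15939 enterocyte-like cells (8952 from controls and 6987 from IE-HuR-/- libraries), 5746 T-like cells (2636 and 3110), 895 goblet-like cells (497 and 398), 244 enteroendocrine-like cells (154 and 90), 224 progenitor-like cells (85 and 139) and 129 tuft-like cells (70 and 59). Within each class the UMIs were summed per library. Levels are given on the CPM scale, as the share of all UMIs of that sum, and errors are SDs over libraries unless stated. A UMI marks 1 end of 1 molecule, so no scaling by gene length was applied. The members received 527065 UMIs in the enterocyte-like sums, 113486 in the T-like, 22466 in the progenitor-like, 20538 in the goblet-like, 12117 in the enteroendocrine-like and 8502 in the tuft-like sums. No member was without a UMI in any class, but 12 had fewer than 30 UMIs over all tuft-like cells, 3 over all goblet-like and 2 over all enteroendocrine-like cells. Enterocyte markers amounted to 87397 CPM in the enterocyte-like sums, and to 5867 CPM in progenitor-like, 6554 CPM in T-like, 15131 CPM in enteroendocrine-like, 17561 CPM in goblet-like and 21448 CPM in tuft-like sums. Their part in the levels of those classes was not tested. In the progenitor-like sums the goblet markers ranged from 635 to 10082 CPM in the controls and from 1069 to 1537 CPM in the libraries labelled IE-HuR-/-. Enterocyte markers there ranged from 1222 to 7268 CPM in the controls and from 7933 to 8940 CPM in the other libraries, and tuft markers from 8.98 to 29.5 CPM and from 66.6 to 161 CPM. Neither range met between the labels, and the part of these markers in the progenitor-like label contrast was not tested.

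The gene targeted by the deletion, Elavl1, serves as a check of the labels. Over the epithelial classes it stood at 29.7, 30.8 and 29.9 CPM in the controls and at 31.8, 31.6 and 32.6 CPM in the libraries labelled IE-HuR-/-, so its RNA was not lower there. In enterocyte-like cells the log2 difference was 0.28 ± 0.05 (SE; adjusted p = 1.36e-05), toward a higher level, in a contrast that called 29.8% of all genes higher. Without TMM, the scaling between libraries used in the tests, it was 0.08 with an adjusted p of 0.163, and on unscaled CPM the means were 29.1 in the controls and 30.8 in the other libraries. Which part of the transcript the counted UMIs came from is not known from the deposited tables, so the count cannot separate a shortened transcript from an intact one. All comparisons by label are therefore between libraries as labelled.

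Summed over its 78 genes, the group was highest in progenitor-like cells and lowest in goblet-like cells. In progenitor-like cells the summed level was 8150, 7025 and 9479 CPM in the controls and 8284, 9271 and 8361 CPM in the libraries labelled IE-HuR-/-. T-like cells followed with 3892, 3923 and 4229 CPM in the controls and 3899, 3980 and 3897 CPM in the other libraries. Tuft-like cells lay between 3243 and 4855 CPM, enteroendocrine-like cells between 2356 and 2654 CPM, enterocyte-like cells between 2008 and 2445 CPM and goblet-like cells between 1144 and 1560 CPM. The ranges of progenitor-like and T-like cells did not meet. T-like and tuft-like cells overlapped, with T-like cells higher in 3 of 6 libraries. The ranges of tuft-like and enteroendocrine-like cells did not meet. Enteroendocrine-like and enterocyte-like cells overlapped in range, although the enteroendocrine-like level was higher in 6 of 6 libraries, and goblet-like cells lay below enterocyte-like cells with no overlap. Within a library, the progenitor-like level was 2.87 to 4.43 times the enterocyte-like level, and the goblet-like level was 0.4997 to 0.6404 times the enterocyte-like level. Secreted and mitochondrially encoded RNAs filled very different shares of these sums, goblet markers alone amounting to 295672 CPM in goblet-like cells. With the UMIs of all marker genes and of mitochondrially encoded genes left out of the total, the means over 6 libraries were 9496 CPM in progenitor-like, 4765 CPM in tuft-like, 4491 CPM in T-like, 3450 CPM in enteroendocrine-like, 2900 CPM in enterocyte-like and 2215 CPM in goblet-like cells. This changed the order only of tuft-like and T-like cells.

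**Figure D1:**
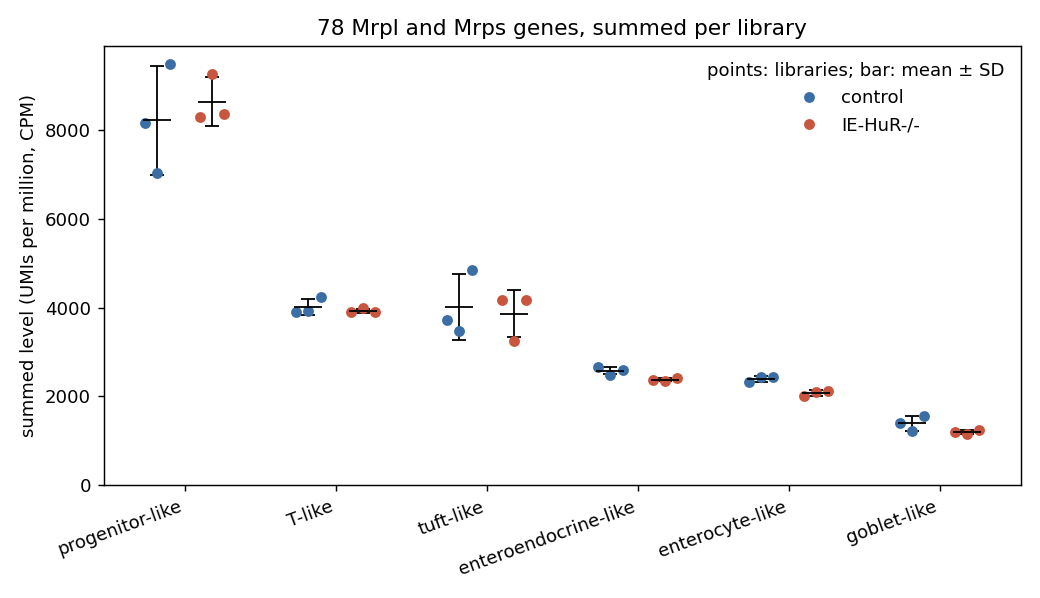
Summed level of the 78 genes (vertical axis, CPM, the share of the class sum) in 6 cell classes, with 1 point for each library, the mean as a bar and the SD as whiskers (3 libraries per label). The progenitor-like points lie between 7025 and 9479 CPM, above every point of the other classes, and the goblet-like points, between 1144 and 1560 CPM, lie below them.

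The mitoribosomal genes and the genes of related machines did not scale alike across classes. The cytosolic ribosomal protein genes, 84 genes read in the same sums, stood at 11.9 to 19.0 times the enterocyte-like level in progenitor-like cells and at 10.9 to 13.7 times in T-like cells. The mitoribosomal genes were only 1.60 to 1.94 times the enterocyte-like level in T-like cells. The nuclear genes of the respiratory chain (84 genes) were 1.26 to 1.71 times the enterocyte-like level in progenitor-like cells and 0.589 to 0.640 times in T-like cells. Apart from those of Sdha, Sdhb, Sdhc and Sdhd, their products belong to complexes that also hold some of the 13 proteins made by the mitoribosome. The mitochondrially encoded RNAs were 0.398 to 0.935 times the enterocyte-like level in progenitor-like cells and 0.270 to 0.350 times in T-like cells. In T-like cells the mitoribosomal genes were thus above, and both groups of respiratory chain genes below, the enterocyte-like level in each of the 6 libraries. These ratios are on unscaled CPM, where a typical gene was higher in T-like cells too. Without TMM the log2 difference from enterocyte-like cells was 0.77 for the median of all genes and 1.07 for the median member.

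Of the 78 members, 72 had their highest mean level in progenitor-like cells, 5 (Mrpl14, Mrpl43, Mrpl46, Mrpl53 and Mrps11) in tuft-like cells and 1 (Mrpl41) in T-like cells. The tuft-like rank of Mrps11 rests on a mean of 46.2 CPM, which 1 high library raised above the median. The lowest mean level was in goblet-like cells for 74 members, in enterocyte-like cells for Mrpl52, Mrps10 and Mrps17, and in T-like cells for Mrpl14. The median member stood at 94.0 CPM in progenitor-like, 40.1 CPM in T-like, 34.8 CPM in tuft-like, 25.7 CPM in enteroendocrine-like, 19.2 CPM in enterocyte-like and 10.7 CPM in goblet-like cells. The spread between classes differed among members, from 2.48 times between the highest and the lowest class for Mrpl14 to 86.3 times for Mrps27. The value for Mrps27 has a goblet-like mean of 0.389 CPM below the line. The fewest UMIs of a member over all goblet-like cells were 6, so this spread is poorly determined. The 3 leading members of each class were Mrpl52, Mrpl12 and Mrpl51 in progenitor-like cells, Mrpl52, Mrpl33 and Mrpl24 in T-like cells, Mrps21, Mrpl52 and Mrpl33 in tuft-like cells, Mrpl52, Mrps33 and Mrpl33 in enteroendocrine-like cells, Mrps36, Mrpl54 and Mrpl51 in enterocyte-like cells, and Mrpl14, Mrpl52 and Mrpl24 in goblet-like cells. Mrps27 was the lowest member in 5 of the 6 classes.

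Each class was then compared with enterocyte-like cells, gene by gene over 12229 genes, with the library as a block (edgeR quasi-likelihood test, Benjamini-Hochberg adjustment). These tests scale libraries by TMM, which sets a typical gene near no change, and the scaling moved the classes by different amounts. Each count over all members is therefore given beside the share of all genes called in that direction and beside the result without TMM.

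In progenitor-like cells 71 of the 78 members were higher and 3 lower, where 32.1% of all genes were called higher and 37.8% lower. The median member stood 1.42 above the enterocyte-like level on the log2 scale and the median of all genes 0.24 below it. Without TMM these medians were 2.26 and 0.57, and 77 members were higher and none lower, so the distance between members and all genes stayed close (1.66 and 1.69). Over all 12229 genes 5735 were called higher and 2785 lower without TMM. With DESeq2 75 members were higher and 1 lower, against 5488 and 3686 of all genes, and the distance was smaller (1.35). Large subunit genes (45 of 49 higher, 2 lower) and small subunit genes (26 of 29 higher, 1 lower) moved in the same direction, as did the bacterial homologues (45 of 48 higher) and the mitochondria-specific genes (26 of 29 higher). Without TMM these counts of higher genes were 49, 28, 48 and 29.

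The gene with the largest difference was Mrps27, a mitochondria-specific pentatricopeptide repeat protein of the small subunit. Its lowest, median and highest levels over 6 libraries were 21.2, 32.4 and 50.7 CPM in progenitor-like cells and 0.481, 0.873 and 1.09 CPM in enterocyte-like cells, with no overlap (log2 difference 4.41 ± 0.28, adjusted p = 2.38e-19). Only 206 UMIs of Mrps27 were counted in all enterocyte-like cells and 86 in the progenitor-like cells. Mrpl38, a mitochondria-specific large subunit protein, stood at 59.3, 105 and 127 CPM in progenitor-like and 4.77, 5.25 and 5.63 CPM in enterocyte-like cells (3.41 ± 0.14, adjusted p = 1.37e-26). Mrps2, a bacterial homologue of the small subunit, stood at 14.1, 26.5 and 39.0 CPM against 1.37, 1.77 and 2.17 CPM (3.03 ± 0.27, adjusted p = 7.73e-14). For all 3 genes the lowest progenitor-like library was above the highest enterocyte-like library. Mrps22, a mitochondria-specific small subunit protein, differed by 2.97 ± 0.18 and Mrpl13, a bacterial homologue of the large subunit, by 2.90 ± 0.13. Mrpl12, which forms the stalk that meets the translation factors, rose from 60.2, 64.8 and 72.6 CPM in enterocyte-like cells to 275, 349.5 and 355 CPM in progenitor-like cells (1.49 ± 0.08, adjusted p = 4.32e-21).

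The 3 Mrps18 genes, descendants of a shared bacterial ancestor, rose by unequal amounts in progenitor-like cells. Mrps18b differed by 2.02 ± 0.15 and Mrps18a by 1.33 ± 0.14. Mrps18c differed by 0.40 ± 0.10 and came to -0.01 under the stricter gate, with 2 times the marker share asked of each cell. Mrps30 differed by 2.02 ± 0.15.

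Mrps36, Mrpl27 and Mrpl43 were called lower in progenitor-like cells with TMM, and all 3 had the opposite sign without it. Mrps36 stood at 103, 142 and 164 CPM in progenitor-like cells and 124, 135 and 143 CPM in enterocyte-like cells, which overlap, and its log2 difference was -0.79 ± 0.08, adjusted p = 1.03e-11 with TMM and 0.04 without. Mrpl27 differed by -0.36 ± 0.12 with TMM and by 0.47 without, and Mrpl43 by -0.26 ± 0.10 and 0.57. On unscaled CPM every progenitor-like library was above every enterocyte-like library for Mrpl43, and the ranges of Mrps36 and Mrpl27 overlapped. No fall is therefore read from these 3 genes, which had the lowest differences of the 78.

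In T-like cells 46 members were higher and 23 lower, where 45.2% of all genes were called higher and 41.3% lower. The median of all genes was 0.05 with TMM and 0.77 without. Without TMM 65 were higher and 5 lower, against 7102 and 3571 of all 12229 genes. Of the members called lower with TMM, 13 changed sign. Small subunit genes were higher in 21 of 29 cases and large subunit genes in 25 of 49, and without TMM in 26 and 39. Mrpl52, a mitochondria-specific large subunit protein, led the class and stood at 275, 303 and 321 CPM in T-like cells against 33.9, 38.9 and 44.6 CPM in enterocyte-like cells (2.20 ± 0.10, adjusted p = 1.74e-25). Mrps27 stood at 4.15, 6.16 and 9.05 CPM in T-like cells (2.11 ± 0.20), Mrps6, a bacterial homologue of the small subunit, at 18.7, 22.2 and 28.6 CPM (1.99 ± 0.10), Mrpl13 at 51.9, 58.1 and 61.2 CPM (1.98 ± 0.08) and Mrpl19 at 31.5, 33.2 and 38.8 CPM (1.88 ± 0.10). None of these ranges met the enterocyte-like range of the same gene. The Mrps6 gene shares an exon on the same strand with Slc5a3, an inositol transporter gene, so its count may hold UMIs of either. The lowest members relative to enterocyte-like cells were Mrps36 (-2.10 ± 0.06), Mrpl27 (-1.60 ± 0.08), Mrpl14 (-1.34 ± 0.07), Mrps31 (-1.31 ± 0.07) and Mrps15 (-0.94 ± 0.07), and these 5 kept their sign without TMM. Progenitor markers amounted to 471 CPM in the T-like sums, against 108 CPM in the enterocyte-like sums, and their part in the T-like levels was not tested.

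In tuft-like cells 27 members were higher and 17 lower, against 24.2% and 36.7% of all genes. Without TMM 58 were higher and 5 lower, against 5199 and 2299 of all 12229 genes. The median of all genes was -0.39 with TMM and 0.42 without, and the median member lay 0.42 and 0.44 above it. With DESeq2 40 were higher and 11 lower, against 4587 and 3396 of all genes. The median member then lay 0.11 above the median of all genes (0.38 and 0.27). With 2 times the marker share asked of each cell the count turned to 14 higher and 27 lower, where the median member stood at -0.16 and the median of all genes at -0.32. The share of all genes called under that gate is not given here, so no direction is read from these counts. The largest differences were those of Mrpl46, a mitochondria-specific large subunit gene, and Mrps11, a small subunit gene with a bacterial homologue. By the RefSeq start sites this pair starts 42 bases apart on opposite strands of chromosome 7 and runs apart. In GENCODE M21 their exons overlap, as Mrps11 starts at 78783119 and Mrpl46, on the minus strand, reaches to 78783531. Mrpl46 stood at 59.4, 89.1 and 150.0 CPM in tuft-like cells against 12.4, 14.1 and 16.3 CPM in enterocyte-like cells (1.86 ± 0.15, adjusted p = 1.80e-15). Mrps11 stood at 23.5, 33.7 and 111 CPM against 6.86, 9.19 and 11.3 CPM (1.26 ± 0.24, adjusted p = 1.34e-05). Both were above the enterocyte-like range in each of the 6 libraries. Whether the counting used strand is not given in the sources used here, so UMIs of the overlapping exons may have been given to either gene. Mrps2 (1.15 ± 0.46), Mrpl41 (1.06 ± 0.17) and Mrpl52 (1.06 ± 0.13) followed. Mrps15 (-1.93 ± 0.17), Mrps36 (-1.84 ± 0.11), Mrpl4 (-1.67 ± 0.23), Mrpl12 (-1.36 ± 0.15) and Mrpl54 (-1.29 ± 0.13) were the lowest and kept their sign without TMM. Mrps2 and Mrpl4 did not pass the count filter of the label contrast in tuft-like cells, so their differences rest on few UMIs.

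In enteroendocrine-like cells 13 members were higher and 50 lower, against 34.1% and 40.0% of all genes. This direction depended on the scaling, since 40 were higher and 14 lower without TMM and 29 of the 50 changed sign. Over all 12229 genes 6901 were called higher and 2446 lower without TMM. Relative to the median of all genes the median member was lower under both, at -0.32 from it with TMM (median of all genes -0.16) and at -0.30 without (0.73). Mrps27 (1.48 ± 0.42), Mrps2 (1.25 ± 0.33), Mrpl44 (1.15 ± 0.20), Mrpl1 (1.08 ± 0.14) and Mrpl38 (0.92 ± 0.19) were the highest, and Mrps36 (-2.41 ± 0.09), Mrps15 (-2.25 ± 0.13), Mrpl12 (-1.83 ± 0.12), Mrpl27 (-1.71 ± 0.12) and Mrpl18 (-1.59 ± 0.12) the lowest. These 10 genes kept their sign without TMM. Mrps27 was the lowest member of this class in level (4.74 CPM), and the fewest UMIs of a member over all 6 libraries were 22. Mrps27 and Mrps2 did not pass the count filter of the label contrast in this class, so their differences rest on few UMIs.

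Goblet-like cells, filled with secretory RNA, were the class in which the members were lowest. Of the 78 members 72 were lower and 2 higher than in enterocyte-like cells, against 42.2% of all genes lower and 17.2% higher. The median member stood at -0.51 from the median of all genes both with and without TMM. Without TMM 69 members were lower and 3 higher, against 4690 and 2320 of all 12229 genes. DESeq2 called 51 members lower and 3 higher, against 3170 and 3306 of all genes. Mrps15, a small subunit gene with a bacterial homologue, stood at 10.1, 13.5 and 21.2 CPM in goblet-like cells against 57.5, 61.5 and 63.3 CPM in enterocyte-like cells (-2.21 ± 0.11, adjusted p = 2.27e-23). Mrpl12 stood at 11.7, 15.02 and 25.9 CPM against 60.2, 64.8 and 72.6 CPM (-2.04 ± 0.10, adjusted p = 1.00e-22). Mrps36 (-2.11 ± 0.07), Mrpl42 (-2.09 ± 0.11) and Mrpl34 (-1.83 ± 0.10) were lower by similar amounts. For these 5 genes every goblet-like library was below every enterocyte-like library. The 2 higher genes were Mrps10 (0.53 ± 0.16) and Mrpl52 (0.35 ± 0.11).

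**Figure D2:**
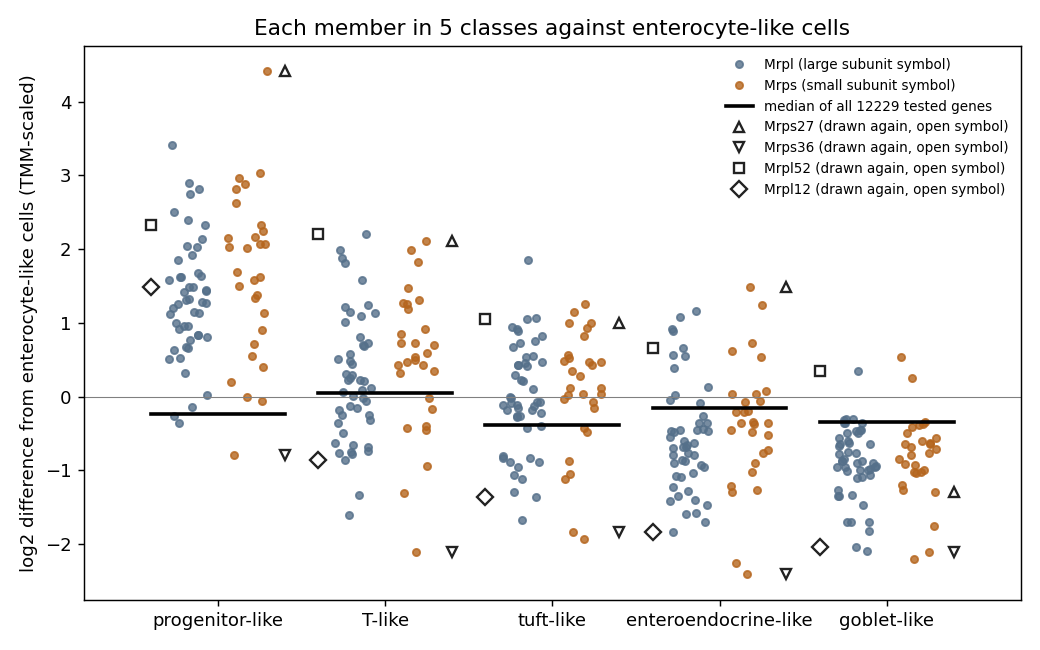
Log2 difference of each of the 78 genes between a class and enterocyte-like cells (vertical axis, TMM-scaled), with large subunit symbols in blue and small subunit symbols in brown, black bars for the median of all 12229 genes, and 4 genes repeated as open symbols. In progenitor-like cells 75 members lie above the bar and Mrps36, Mrpl27 and Mrpl43 below it, while Mrps36 is the lowest or among the 2 lowest members in the other 4 classes.

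The classes also differed in how the small and the large subunit shared the UMIs, but the order depended on whether Mrps36 was counted. Counted by symbol, the ratio of small to large subunit UMIs was 0.519 ± 0.006 in enterocyte-like cells, 0.498 ± 0.015 in progenitor-like, 0.485 ± 0.017 in T-like, 0.481 ± 0.022 in enteroendocrine-like, 0.476 ± 0.024 in goblet-like and 0.460 ± 0.023 in tuft-like cells (n = 6). Mrps36 alone stood at 135 ± 6.86 CPM in enterocyte-like cells and at 33.3 ± 5.56 CPM in goblet-like cells. With Mrps36 left out and Mrps18a and Mrps30 counted with the large subunit, where their products sit, the ratio was 0.404 ± 0.007 in enterocyte-like, 0.409 ± 0.020 in tuft-like, 0.410 ± 0.021 in goblet-like, 0.419 ± 0.019 in enteroendocrine-like, 0.435 ± 0.015 in T-like and 0.441 ± 0.012 in progenitor-like cells. The enterocyte-like ratio thus went from the highest to the lowest of the 6 means. With Mrps36 alone left out it was 0.427, the lowest of the 6 means as well, whereas with only Mrps18a and Mrps30 moved it was 0.495 and remained the highest. By label, the ratio in tuft-like cells was 0.486, 0.484 and 0.468 in the controls and 0.432, 0.449 and 0.441 in the libraries labelled IE-HuR-/-, which do not overlap, with 829 to 1886 member UMIs behind each value. By the place of the products these means were 0.426 and 0.391, again with no overlap. In the other 5 classes the labels overlapped by symbol, with means of 0.497 in the controls and 0.499 in the IE-HuR-/- libraries for progenitor-like, 0.486 and 0.467 for goblet-like, 0.515 and 0.523 for enterocyte-like, 0.473 and 0.488 for enteroendocrine-like and 0.495 and 0.474 for T-like cells. By the place of the products the enterocyte-like difference had the opposite direction, at 0.409 and 0.399 with no overlap, and the labels of the other 4 classes overlapped. No test was made on these ratios.

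**Figure D3:**
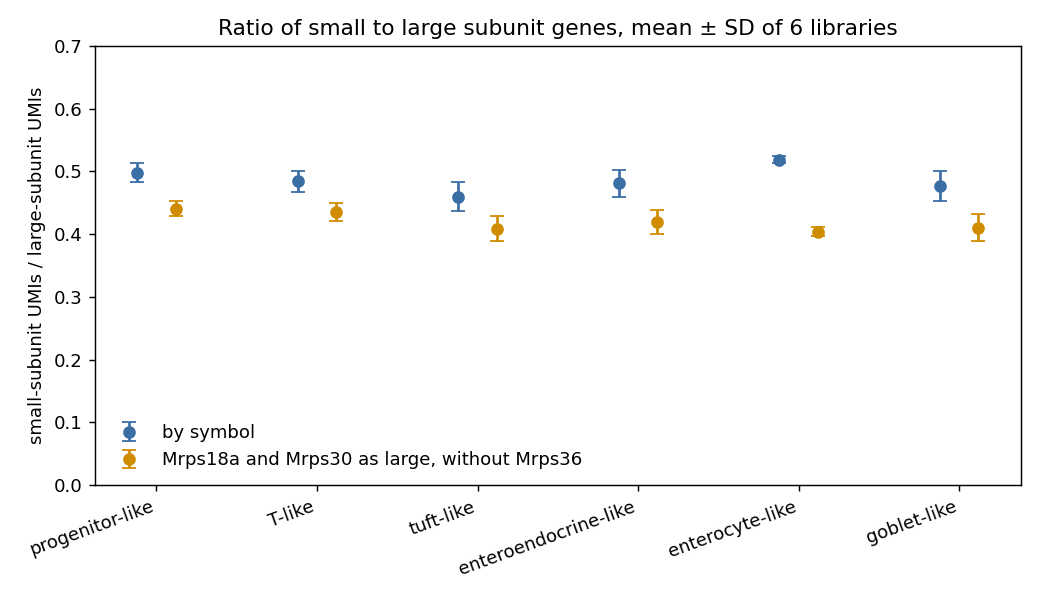
Ratio of small to large subunit UMIs (vertical axis, no unit) in the 6 classes, as the mean and SD of 6 libraries, counted by symbol (blue) and with Mrps18a and Mrps30 as large and Mrps36 left out (orange). By symbol enterocyte-like cells have the highest mean (0.519), and by the place of the products the lowest (0.404).

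Genes around the mitoribosome gave a similar picture in progenitor-like cells. All 5 mitoribosome proteins with other symbols (Dap3, Ptcd3, Chchd1, Aurkaip1 and Gadd45gip1) were higher than in enterocyte-like cells, for example Gadd45gip1 (119.7 against 12.4 CPM, log2 difference 2.46 ± 0.12). Of 10 mitochondrial translation factors tested 8 were higher and none lower, led by Tsfm, the exchange factor of the elongation factor Tufm (65.9 against 3.13 CPM, log2 difference 3.55 ± 0.18). Of 17 mitochondrial aminoacyl-tRNA synthetases, which charge the organelle's tRNAs, 16 were higher, among them Yars2 (20.1 against 0.785 CPM, log2 difference 3.84 ± 0.36), and Lars2 was lower (821 against 1277 CPM, log2 difference -1.58 ± 0.24). Of 22 assembly factors 19 were higher and 1 (Mterf3) lower, and Fastkd2, needed for the large subunit RNA, stood at 30.1 against 0.990 CPM, log2 difference 4.11 ± 0.28. Of 9 genes for mitochondrial RNA synthesis and upkeep 7 were higher, such as Lrpprc (71.4 against 6.52 CPM, log2 difference 2.60 ± 0.15), and Polg2 was lower. This list, here and below, also holds Polg, Polg2 and Twnk, which serve the replication of mitochondrial DNA. All 13 mitochondrially encoded protein genes were lower, with a median log2 difference of -1.38. Of all genes 32.1% were called higher and 37.8% lower here. Without TMM the counts of higher genes were 5 for the proteins with other symbols, 9 for the translation factors, 16 for the synthetases, 20 for the assembly factors and 8 for RNA synthesis and upkeep, and 11 mitochondrially encoded genes were lower. In T-like cells, 21 of 22 assembly factors, 13 of 17 synthetases, 7 of 10 translation factors and 6 of 9 genes for RNA synthesis and upkeep were higher, and again all 13 mitochondrially encoded genes were lower (median -2.40), where 45.2% of all genes were called higher and 41.3% lower. Without TMM these counts were 22, 15, 9, 6 and 13, where 58.1% of all genes were called higher. In goblet-like cells all 5 mitoribosome proteins with other symbols and 8 of 10 translation factors were lower, and no gene of either list was higher, where 42.2% of all genes were called lower. Without TMM these counts were 4 and 8. The other lists were mixed in goblet-like cells with TMM. Of 22 assembly factors 5 were lower and 0 higher, and of 17 synthetases 6 were lower and 1 higher. Their medians (-0.30 and -0.27) lay above the median of all genes (-0.35). Of 9 genes for RNA synthesis and upkeep 6 were lower and 0 higher, and all 13 mitochondrially encoded genes were lower.

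The label contrast asked whether the members differ between IE-HuR-/- and control libraries within a class. In progenitor-like cells none of 78 members was called (0.210% of all 5250 genes were), with 2 at an unadjusted p below 0.05 and none called by DESeq2. In tuft-like cells none of 50 was called (0.0414% of 4826 genes), none had an unadjusted p below 0.05 and DESeq2 called none. In enteroendocrine-like cells none of 73 was called (0.380% of 8152 genes), with 4 at an unadjusted p below 0.05 and none called by DESeq2. The median SE of a member's log2 difference was 0.26 in progenitor-like, 0.32 in tuft-like and 0.30 in enteroendocrine-like cells, against 0.06 in enterocyte-like cells, so most changes of the size called in enterocyte-like cells were below what these classes could resolve. The 4 enteroendocrine-like genes were Mrpl47 (-1.24 ± 0.46), Mrpl9 (-0.87 ± 0.38), Mrpl12 (-0.76 ± 0.30) and Mrpl13 (0.68 ± 0.28), named because of these values. The percentages of all genes given here are at the adjusted threshold. The unadjusted counts stand without a share of all genes, so no change is read from them or from these 4 genes.

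In enterocyte-like cells, the deepest class, the summed level was 2320, 2445 and 2436 CPM in the controls and 2008, 2091 and 2131 CPM in the libraries labelled IE-HuR-/-, a difference of -13.5% with no overlap. The level of cytosolic ribosomal protein genes differed in the same direction (12826 ± 452 and 11304 ± 340 CPM), and so did most genes. On unscaled CPM, all 3 IE-HuR-/- libraries lay below all 3 controls for 53.5% of 12124 genes and above them for 15.8%. Among the members these counts were 55 lower and 5 higher of 78. Both the members and genes in general were thus more often lower than higher on this scale. Epithelial markers (10764 to 11200 CPM in the controls, 13169 to 13873 CPM in the other libraries) and enterocyte markers (83270 to 86668 and 88856 to 91562 CPM) were higher under the IE-HuR-/- label, and their part in the difference was not tested.

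With TMM scaling, 30 members were called lower and 13 higher in enterocyte-like cells (edgeR). Over all 12127 genes 59.7% were called, 29.9% lower and 29.8% higher, against 38.5% and 16.7% of the members. Without TMM, 55 members were lower and 5 higher, and all genes split into 6195 lower and 1776 higher. The median member stood at -0.08, or 0.06 below the median of all genes, and the latter distance was also 0.06 without TMM. Falls were found in both subunits (18 of 49 large and 12 of 29 small) and in both origins (19 of 48 bacterial homologues and 11 of 29 mitochondria-specific genes). Without TMM these counts were 38, 17, 34 and 21.

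The largest fall was that of Mrpl13, a bacterial homologue of the large subunit. It stood at 11.98, 12.5 and 11.4 CPM in the controls and 6.22, 6.34 and 6.38 CPM in the libraries labelled IE-HuR-/- (log2 difference -0.72 ± 0.07, adjusted p = 7.74e-10). The labels did not overlap, and all 3 IE-HuR-/- libraries lay near 6 CPM. Mrps35, a mitochondria-specific small subunit gene, stood at 18.1, 17.7 and 16.4 CPM in the controls and 10.6, 11.1 and 11.3 CPM in the libraries labelled IE-HuR-/- (log2 difference -0.47 ± 0.06, adjusted p = 2.09e-07). Mrpl24, a large subunit gene with a bacterial homologue and the highest in level of the 10 largest falls, stood at 73.8, 76.5 and 70.2 CPM in the controls and 48.4, 53.4 and 50.2 CPM in the libraries labelled IE-HuR-/- (log2 difference -0.34 ± 0.05, adjusted p = 3.60e-07). Neither gene's labels overlapped. The other 7 were Mrpl39 (-0.44 ± 0.07), Mrps17 (-0.43 ± 0.07), Mrpl44 (-0.41 ± 0.11), Mrpl50 (-0.41 ± 0.06), Mrps10 (-0.36 ± 0.10), Mrps16 (-0.34 ± 0.05) and Mrpl34 (-0.34 ± 0.05), each with all 3 IE-HuR-/- libraries below all 3 controls.

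Against this trend, Mrpl15, a large subunit gene with a bacterial homologue, stood at 52.0, 53.4 and 53.0 CPM in the controls and 57.9, 61.7 and 61.8 CPM in the libraries labelled IE-HuR-/- (log2 difference 0.40 ± 0.04, adjusted p = 3.45e-09). Mrpl54, a mitochondria-specific gene of the large subunit, stood at 75.5, 85.9 and 86.5 CPM in the controls and 92.0, 96.3 and 96.5 CPM in the libraries labelled IE-HuR-/- (log2 difference 0.40 ± 0.05, adjusted p = 2.77e-08). Mrps36 stood at 124, 131 and 134 CPM in the controls and 137, 141 and 143 CPM in the libraries labelled IE-HuR-/- (log2 difference 0.31 ± 0.04, adjusted p = 8.17e-08), and Mrps18b at 9.33, 10.3 and 10.7 CPM in the controls and 11.1, 11.6 and 12.7 CPM in the libraries labelled IE-HuR-/- (log2 difference 0.43 ± 0.07, adjusted p = 6.24e-06). In these 4 genes and in Mrpl53 (0.29 ± 0.05) the IE-HuR-/- libraries lay above the controls on unscaled CPM too, so they rose without the help of the scaling. Mrps28 (0.48 ± 0.09), Mrps6 (0.40 ± 0.12), Mrpl57 (0.30 ± 0.06), Mrpl10 (0.29 ± 0.06) and Mrps7 (0.29 ± 0.06) were called higher with TMM but overlapped on unscaled CPM. The other 3 called higher, Mrpl55, Mrps15 and Mrps21, had the opposite sign without TMM. Of the Mrps18 genes, Mrps18a (log2 difference -0.13 ± 0.07, adjusted p = 0.118) and Mrps18c (log2 difference 0.04 ± 0.05, adjusted p = 0.468) did not pass. Mrps18c and Mrpl12 (log2 difference 0.06 ± 0.05, adjusted p = 0.299) were called lower without TMM, at -0.16 and -0.14. Mrps30 differed by log2 difference -0.19 ± 0.08, adjusted p = 0.0310.

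**Figure D4:**
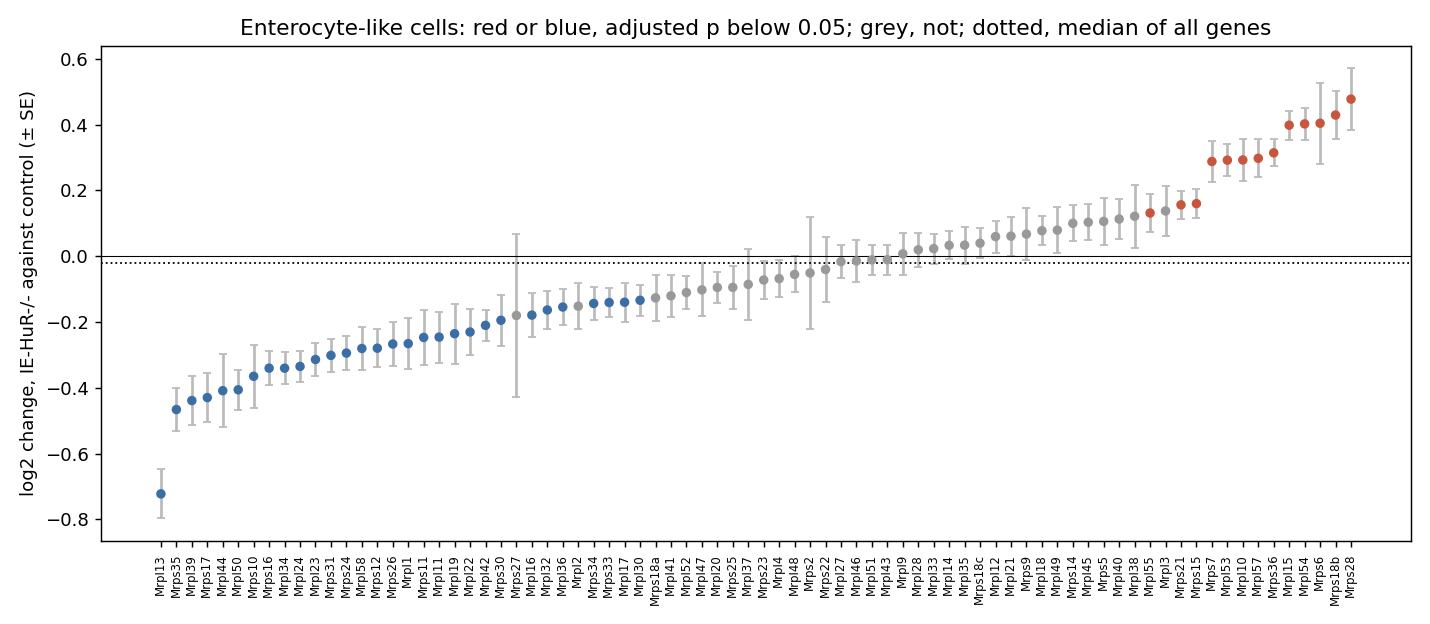
Log2 change between libraries labelled IE-HuR-/- and controls in enterocyte-like cells (vertical axis, TMM-scaled, with SE) for each of the 78 genes in rank order, with called falls in blue, called rises in red and the rest in grey. The 30 falls reach -0.72 for Mrpl13 and the 13 rises 0.48 for Mrps28.

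HuR binds U- and AU-rich letters, so the 3′ UTRs of the members were read for them. The median 3′ UTR of a member was 327 bases long, against 933 bases over 11170 genes tested in enterocyte-like cells. The letters ATTTA stood in 44 of the 78 (56.4%, against 64.9% of tested genes), and a run of 7 T in 22 (28.2% against 40.2%). Per 1000 bases ATTTA was as frequent in members (1.86) as in tested genes (1.83). ATTTA stood in 18 of the 30 members that fell in enterocyte-like cells, in 8 of the 13 that rose and in 18 of the 35 that were not called. A run of 7 T stood in 12, 2 and 8 of them. The median 3′ UTR lengths of these groups were 481.5, 301 and 320.0 bases. A match is no evidence of binding.

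The related lists in enterocyte-like cells are read against the same shares of all genes, 29.9% lower and 29.8% higher with TMM. With TMM, 3 of 5 mitoribosome proteins with other symbols were lower, namely Dap3 (-0.40), Ptcd3 (-0.41) and Chchd1 (-0.24). Of 10 translation factors 6 were lower and 1 higher, the elongation factor Tufm (0.21). Of 17 synthetases 7 were lower and 2 (Iars2 and Sars2) higher. Of 21 assembly factors tested 11 were lower, among them Ddx28 (-0.97), Mrm2 (-0.85), a methyltransferase of the large mitoribosomal RNA, and Gtpbp10 (-0.74), a GTPase of large subunit assembly, and 1 (Mrm1, 0.48) was higher. Of 9 genes for RNA synthesis and upkeep 4 were higher, including both subunits of the mitochondrial DNA polymerase, Polg (0.29) and Polg2 (0.33), and Tfam (-0.20), which packages and transcribes mitochondrial DNA, was lower. Of the 13 mitochondrially encoded genes 9 were higher and none lower (median 0.24). Without TMM, where 51.1% of all genes were called lower and 14.6% higher, no gene of these 6 lists was higher. The numbers lower were then 4 of the proteins with other symbols, 7 translation factors, 12 synthetases, 12 assembly factors, 3 genes for RNA synthesis and upkeep and 2 mitochondrially encoded genes. Of these 2 scalings, the rises in these lists were thus called only with TMM. The summed level of the mitochondrially encoded genes, 125325 ± 3530 CPM in the controls and 128531 ± 5675 CPM in the other libraries, overlapped between labels.

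In goblet-like cells the summed level was 1389, 1222 and 1560 CPM in the controls and 1186, 1144 and 1245 CPM in the libraries labelled IE-HuR-/-, with overlap. Of 69 members tested 1 was called, lower, where 21.9% of 8286 genes were called. That gene, Mrpl50, a mitochondria-specific large subunit gene, stood at 10.7, 8.998 and 11.6 CPM in the controls and 4.10, 6.08 and 3.94 CPM in the libraries labelled IE-HuR-/- (log2 difference -1.04 ± 0.30, adjusted p = 0.0122), with no overlap. On unscaled CPM, all 3 IE-HuR-/- goblet-like libraries lay below all 3 controls for 27.6% of 8285 genes and for 20 of the 69 members. They lay above them for 11.7% of the genes and 0 members. DESeq2 called no member here, and leaving out IE-HuR-/- replicate 1 or 3 also lost the call of Mrpl50. Mrpl50 was among the 10 largest falls of the enterocyte-like cells as well, but goblet-like sums held 17561 CPM of enterocyte markers, and both comparisons come from the same libraries. Enterocyte markers in these sums ranged from 18536 to 19957 CPM in the controls and from 13975 to 16739 CPM in the other libraries, and epithelial markers from 9592 to 10094 CPM and from 13270 to 14238 CPM. Neither range met between the labels, and their part in the Mrpl50 difference was not tested.

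In T-like cells the summed level hardly differed (4015 ± 186 and 3925 ± 47.5 CPM). Of 78 members 1 was called, lower, against 4.03% of 11145 genes. Mrps6 stood at 28.4, 23.7 and 28.6 CPM in the controls and 20.7, 18.7 and 19.0 CPM in the libraries labelled IE-HuR-/- (log2 difference -0.48 ± 0.12, adjusted p = 0.0407), with no overlap. The call did not hold with DESeq2 or without TMM, and it was lost when control replicate 1 or any IE-HuR-/- replicate was left out. On unscaled CPM, all 3 IE-HuR-/- T-like libraries lay below all 3 controls for 8.31% of 11144 genes and 8 members. They lay above them for 12.5% of the genes and 3 members.

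Whether the label contrast differed between classes was tested as an interaction with the enterocyte-like contrast. No member was called for progenitor-like cells (0.613% of 12229 genes; 11 members at an unadjusted p below 0.05, and 1 called by DESeq2) or for goblet-like cells (1.86%; 5 members at an unadjusted p below 0.05, and none called by DESeq2). Both percentages are at the adjusted threshold, and no difference is read from the unadjusted counts. For T-like cells 7 of the 78 members (8.97%) were called, a smaller share than the 11.3% of all genes. The difference of the contrasts was above 0 for 2 of them and below 0 for 5, against 870 and 517 of all genes. The balance of directions depended on the scaling, since without TMM 13 members were called above 0 and 1 below, against 1818 and 216 of all genes. The 7 kept their direction under every alternative run, but 3 remained called without TMM, 3 with DESeq2, 3 with no filter, 2 with 2 times the marker share, 4 with thinned sums and 6 with each of the other cell filters. With 1 library left out at a time, dropping control replicates 1, 2 and 3 kept 2, 5 and 6 of the calls, and dropping IE-HuR-/- replicates 1, 2 and 3 kept 4, 2 and 2. Mrpl13, at about 12 and 6 CPM in enterocyte-like cells by label, stood at 61.2, 51.9 and 54.9 CPM in the controls and 58.1, 58.1 and 58.5 CPM in the libraries labelled IE-HuR-/- in T-like cells, and the difference of the contrasts was 0.79 ± 0.16, adjusted p = 4.45e-04. Mrps16 likewise fell in enterocyte-like cells and stood at 99.9, 90.6 and 105 CPM in the controls and 102, 96.3 and 98.0 CPM in the libraries labelled IE-HuR-/- in T-like cells (0.36 ± 0.12, adjusted p = 0.0470). The other 5 were called higher in enterocyte-like cells, and in T-like cells Mrps6 was called lower and the rest were not called. The differences of the contrasts were those of Mrps6 (-0.85 ± 0.20, adjusted p = 0.00262), Mrps28 (-0.65 ± 0.21, adjusted p = 0.0350), Mrps18b (-0.60 ± 0.19, adjusted p = 0.0377), Mrpl15 (-0.41 ± 0.13, adjusted p = 0.0242) and Mrps36 (-0.37 ± 0.12, adjusted p = 0.0434). For Mrps28, Mrps18b, Mrpl15, Mrps36, Mrpl13 and Mrps16 the labels overlapped in T-like cells.

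**Figure D5:**
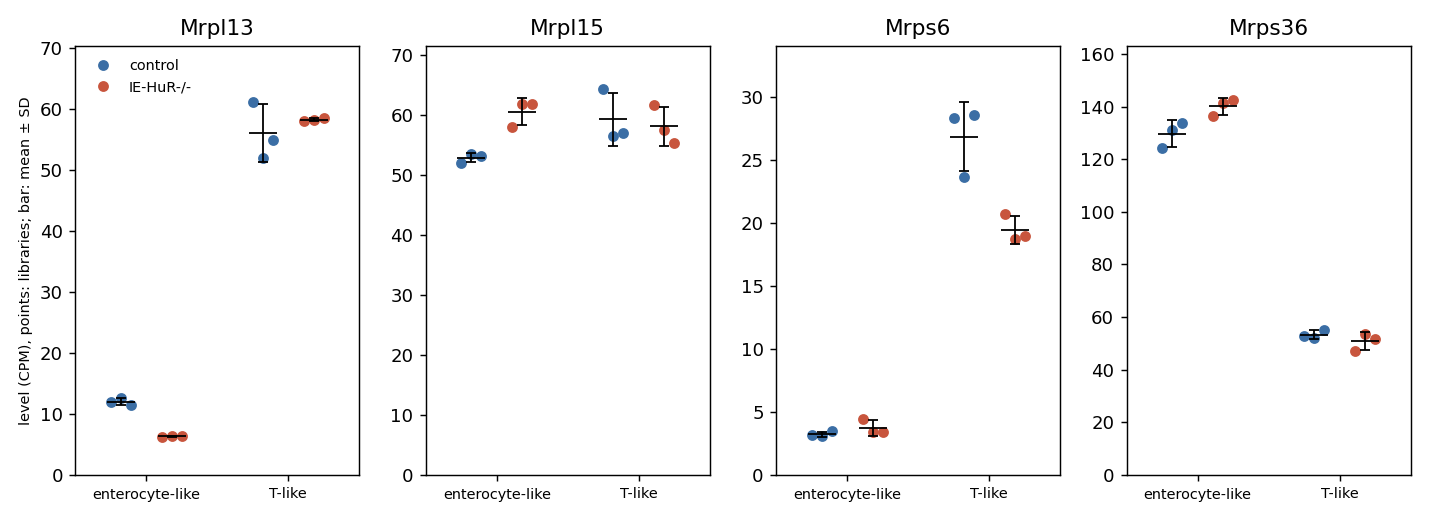
Levels of Mrpl13, Mrpl15, Mrps6 and Mrps36 (vertical axes, CPM, starting at 0) in enterocyte-like and T-like cells, with 1 point for each library, and the mean and SD of 3 libraries per label. Mrpl13 lies near 12 CPM in control and near 6 CPM in IE-HuR-/- enterocyte-like cells, while its T-like points overlap between labels; Mrps6 lies lower in the IE-HuR-/- T-like libraries only.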

How the data were processed

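Single-cell RNA-seq was performed on small intestinal epithelium from 3 control and 3 IE-HuR-/- libraries. For each library, unnormalized UMI counts were deposited as a matrix of features by barcodes. The file headers name Cell Ranger 6.1.2 and the submitters' processing notes name Cell Ranger, Seurat and mm10, whereas the study's methods name another Cell Ranger version and a human reference. The labels give a 5′ kit and the methods a 3′ kit, and the strand setting is not given in the sources used here. The labels tie no library to a mouse, whereas the study gives 3 animals per genotype for these data, so p-values measure the spread between these libraries.

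Of 60706 barcodes, all with at least 500 UMIs, the 42679 with at least 1000 UMIs and 200 genes were kept. A cell joined a class when the UMI share of its marker list and the number of markers detected passed limits set after the marker values had been seen (for example 5% and 8 markers for enterocyte-like, 0.15% and 3 markers for progenitor-like cells). This assigned 23177 cells, and left out 19502, among them 626 that passed 2 or more gates, which was the only treatment of doublets. Of the assigned cells, 3604 enterocyte-like, 277 T-like, 52 goblet-like, 17 progenitor-like, 14 enteroendocrine-like and 9 tuft-like cells lay within 25% above the marker share required. The cell classes are rebuilt from markers and may differ from the study's own. Shares and levels may include free RNA.

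UMIs were summed per class and library. Genes were filtered with filterByExpr (minimum count 10, minimum total 15), scaled by TMM and tested with edgeR 4.0.16 (quasi-likelihood, robust) in R 4.3.3, with Benjamini-Hochberg adjustment over all genes tested and a threshold of 0.05. Classes were compared with the library as a block, and a class-by-label term tested whether contrasts differed. CPM uses all UMIs of the sum. Alternatives were no TMM, DESeq2 1.42.0, no filter, other cell filters, thinned sums, the replicate number as a block and each library left out in turn. Leaving marker and mitochondrially encoded UMIs out of the total, and separating Mrps36 from Mrps18a and Mrps30 in the subunit ratio, were added after seeing the data. The steps were also run on simulated counts with large changes and the same spread in every class. The fitted spread between libraries (biological coefficient of variation) was 0.22 in progenitor-like and tuft-like and 0.043 in enterocyte-like sums. That run therefore does not show which changes each class could resolve.

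The members and lists were chosen with earlier results of these data known. The genes named are the called members with the largest differences (up to 10 in each direction by label, 5 by class or interaction), the 3 highest of each class, and Mrpl12, Mrps18a, Mrps18b, Mrps18c, Mrps30 and Mrps36.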

Additional observations from a re-analysis of the deposited data

Results flagged for a closer look

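For 7 members the label contrast differed between T-like and enterocyte-like cells by the interaction test (edgeR quasi-likelihood test, adjusted over 12229 genes). As T-like minus enterocyte-like log2 differences these were 0.79 for Mrpl13, 0.36 for Mrps16, -0.37 for Mrps36, -0.41 for Mrpl15, -0.60 for Mrps18b, -0.65 for Mrps28 and -0.85 for Mrps6. Of all genes 11.3% passed the same test. Without TMM 13 members were called above 0 and 1 below, against 1818 and 216 of all genes. The 7 kept their direction under every alternative run, and 2 to 6 of them remained called, 3 without TMM, 3 with DESeq2 and 2 without control replicate 1 or IE-HuR-/- replicate 2 or 3.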

How the results depend on the processing

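The counts of members called in the progenitor-like, tuft-like and enteroendocrine-like label contrasts stayed at 0 under every alternative that leaves out a replicate. The goblet-like count of 1 became 7 without TMM, 0 with DESeq2, 2 with no filter, 3 with at most 25% mitochondrial UMIs, 2 without the 10% deepest cells and 3 with thinned sums, and 0 to 5 with each replicate left out, the highest without control replicate 2. Over all genes in goblet-like cells, 640 were called higher and 1350 lower without TMM, and 709 and 415 with DESeq2. The enterocyte-like count of 43 became 27 with 2 times the marker share and 34 to 45 with each replicate left out. The T-like count of 1 became 0 without TMM, with DESeq2, 2 times the marker share, without the deepest cells and with thinned sums, and 0 to 1 with each replicate left out. For the difference of the label contrast, the progenitor-like count of 0 became 4 without TMM, 1 with DESeq2 and 1 with no filter, and 0 to 1 with each replicate left out. The T-like count of 7 became 14, 3 and 3 under the same changes, 3 with 2 times the marker share, 4 with thinned sums and 2 to 6 with each replicate left out. It was 2 without control replicate 1 or IE-HuR-/- replicate 2 or 3, and 4 without IE-HuR-/- replicate 1. For the T-like label contrast, 266 of all genes were called higher and 184 lower without TMM, and 132 and 159 with DESeq2. The counts under the other alternatives stand without a share of all genes, so no change in the members is read from them. The cause was not tested.

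Same-numbered libraries did not deviate together (correlations from -0.24 to 0.34 over the 6 classes), so the numbers were not read as pairs. With the replicate block, 3 members were called in goblet-like, 45 in enterocyte-like and 0 in T-like cells, and none in the other 3 classes. These counts also stand without a share of all genes.

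Among the genes named for it, the progenitor-like difference from enterocyte-like cells reversed without TMM for Mrps36 (0.044), Mrpl27 (0.47) and Mrpl43 (0.57). It reversed with DESeq2 for Mrpl27 (0.051) and Mrpl43 (0.16), and with 2 times the marker share for Mrps18c (-0.014). Mrps21, called higher there, was called lower under that gate and also changed sign without the 10% deepest cells. In T-like cells that gate reversed 5 members called higher (Mrpl1, Mrpl16, Mrpl23, Mrpl4 and Mrps28), 1 of them with a call. In the enterocyte-like label contrast Mrpl12 (-0.14) and Mrps18c (-0.16) reversed without TMM. The ratio of small to large subunit UMIs was 0.476 in progenitor-like cells without the deepest cells and 0.533 in enterocyte-like cells with 2 times the marker share. With Mrps36 left out and Mrps18a and Mrps30 as large it was 0.441 in progenitor-like, 0.410 in goblet-like, 0.404 in enterocyte-like, 0.409 in tuft-like, 0.419 in enteroendocrine-like and 0.435 in T-like cells. In the same order it was 0.473, 0.438, 0.427, 0.434, 0.452 and 0.465 with only Mrps36 left out, and 0.465, 0.448, 0.495, 0.434, 0.447 and 0.454 with only Mrps18a and Mrps30 as large. Progenitor-like and tuft-like sums rest on as few as 12 cells in a library.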
